A study of Mus musculus with 6 samples.

Results

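MHC class I antigen presentation was examined through 10 genes, chosen by name from the pathway: the classical heavy chains *H2-K1* and *H2-D1*, the light chain *B2m*, the peptide transporter *Tap1* and *Tap2*, the loading factor *Tapbp*, the immunoproteasome subunits *Psmb8*, *Psmb9* and *Psmb10*, and the transcriptional activator *Nlrc5*. All 10 are among the 40166 mouse genes of the count table, and all 10 passed the filter on low counts that left 15355 genes for testing. The tumors were grown from YUMM3.3, a BRAF-mutant mouse melanoma line, injected under the skin of C57BL/6 mice. Rigosertib (RGS), a RAS mimetic, was given at 300 mg/kg by oral gavage in the group of 3 RGS tumors, and water by the same route in the group of 3 vehicle tumors. All 6 tumors were collected at day 17 of treatment for bulk RNA sequencing, so every group shares the cell line, the strain and the gavage. The labels give neither the sex nor the age of these mice, and the injected line is a single culture that does not sample melanomas of different origin.

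A class I molecule is a heavy chain that crosses the membrane, bound to β2-microglobulin and to a short peptide. The peptides are cut from cytosolic proteins by the proteasome, carried into the endoplasmic reticulum by the TAP transporter, trimmed there and loaded onto the heavy chain with the help of tapasin, calreticulin and PDIA3. Interferon gamma is known to raise most of these genes together, in part through IRF1 and NLRC5, and it exchanges 3 catalytic subunits of the proteasome for PSMB8, PSMB9 and PSMB10. Melanoma cells that lose class I molecules can escape CD8+ T cells.

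The promoters of the pathway are shown first, because *H2-K1* and *H2-D1*, which share much of theirs, had different fold changes. Another reason is that *Tap1* and *Psmb9* are read outward from the single stretch between their RefSeq starts. By the gene ends in the count table these genes overlap there. RefSeq (GRCm38.p6) gave a window from 250 bases before to 50 bases after the start for 8 of the 10 members, and none for *Tap2* and *Nlrc5*. The stretches below lie before the RefSeq start, which can differ from the gene ends in the count table, and are written 5′ to 3′ on the strand of the gene. By those gene ends, the *H2-D1* and *Psmb8* stretches and the *Tapbp* window lie inside the genes as counted. Capitals mark matches, on either strand, to the interferon-stimulated response element core GAAANNGAA, the GAS element TTCNNNGAA, the cyclic AMP element core TGACG, the CCAAT box and the NF-kB site. *H2-K1* is shown from 115 bases to 1 base before its start (chr17:34000348-34000462, minus strand), and *H2-D1*, at a shift of 60 bases, from 175 to 61 bases before its start (chr17:35262919-35263033, plus strand). RefSeq listed 2 windows for *H2-K1*, of which the first was used, and the shift depends on the starts taken. *B2m* is shown from 145 bases before its start (chr2:122147542-122147686, plus strand), *Tap1* across the 225 bases that separate its start from that of *Psmb9* (chr17:34187331-34187555, plus strand), and *Psmb8* from 110 bases before its start (chr17:34198085-34198194, plus strand).
H2-K1: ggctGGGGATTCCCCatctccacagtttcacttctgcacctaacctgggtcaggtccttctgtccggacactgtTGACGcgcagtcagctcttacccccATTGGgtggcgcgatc
H2-D1: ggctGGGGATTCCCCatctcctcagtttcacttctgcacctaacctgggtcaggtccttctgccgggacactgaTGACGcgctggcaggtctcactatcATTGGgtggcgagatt
B2m: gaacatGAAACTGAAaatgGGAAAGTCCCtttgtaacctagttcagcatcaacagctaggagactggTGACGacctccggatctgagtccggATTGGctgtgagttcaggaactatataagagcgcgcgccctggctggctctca
Tap1: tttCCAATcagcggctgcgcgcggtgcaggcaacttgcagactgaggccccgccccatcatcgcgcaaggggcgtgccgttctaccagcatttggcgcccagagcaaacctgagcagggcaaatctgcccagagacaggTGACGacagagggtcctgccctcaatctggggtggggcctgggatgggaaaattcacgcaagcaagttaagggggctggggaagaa
Psmb8: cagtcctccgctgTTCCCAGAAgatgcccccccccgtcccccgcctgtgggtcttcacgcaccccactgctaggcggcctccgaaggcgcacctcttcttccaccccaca

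The *H2-K1* and *H2-D1* stretches were equal at 102 of 115 bases (88.7%), and the whole windows, at the same shift, at 176 of 240 bases (73.3%). Each held an NF-kB site, a TGACG core and a CCAAT box in reverse (ATTGG), in the same order and at the same spacing. *B2m* held these 3 motifs and, farther from the start, a response element core. The stretch shared by *Tap1* and *Psmb9* held a TGACG core and a CCAAT box. *Psmb8* held a GAS element. In its 300-base window *Tapbp* held a CCAAT box in reverse at 2 positions, and that of *Psmb10* held none of the 5 motifs. Among all 32851 RefSeq windows of this length, 8.56% held the response element core, 8.30% the GAS element, 20.8% the TGACG core, 37.4% the CCAAT box and 8.46% the NF-kB site, so the shorter motifs are common. A match is a description of the letters and not evidence of binding, and the lack of a match does not show that an element is absent.

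The libraries set some limits on these values. Counts assigned to genes summed to between 22793087 and 32555494 in the vehicle tumors and to between 13837932 and 21617368 in the RGS tumors, so the RGS libraries were all shallower, and library depth cannot be told apart from treatment. Mitochondrial genes took 2.13% to 3.20% of the counts with vehicle and 5.60% to 8.22% with RGS, and ribosomal protein genes 5.66% to 10.2% and 3.15% to 3.68%. In CPM (counts scaled to library size, with TMM factors), the detection floor of 3 counts was 0.0856 to 0.226, depending on the library, which covers counting error only. The labelled tissue is a tumor, yet 29 of 80 marker genes of host and tumor cell types had 0 counts in all 6 libraries. *Ptprc*, which encodes the leukocyte antigen CD45, was among them, as were *Cd3e*, *Cd8a*, *Adgre1* and *Itgax*, and the melanocyte genes *Dct*, *Tyr* and *Mlana*. Summed over 12 T and NK cell markers, of which 8 were at 0 throughout, the level was 0.0285 to 0.602 CPM with vehicle and 0.612 to 1.42 CPM with RGS. With RGS all of it came from *Trac*, at 30, 16 and 10 counts in RGS tumors 10, 11 and 12 and 0 in every vehicle tumor. The 0.602 CPM was 14 counts of *Cd4* in vehicle tumor 9. Over 9 macrophage markers, 3 of them at 0 throughout, it was 90.1 to 101 CPM and 102 to 137 CPM, most of it from *Cd68* and *Mertk*. Over 8 leukocyte markers, 2 of them at 0 throughout, it was 765 to 829 CPM and 1163 to 1219 CPM, most of it from *Laptm5* and *Arhgdib*, which moved in opposite directions: *Laptm5* was 5.10-fold higher with RGS and *Arhgdib* 2.89-fold lower. The 5 B cell markers, 4 of them at 0 throughout, reached at most 0.473 CPM. The sums went from 7.19 to 12.1 CPM with vehicle to 22.2 to 30.8 CPM with RGS over 8 endothelial markers (1 at 0 throughout). Of the 5 tested, 2 were called higher and 0 lower, and *Tek*, near the floor, had a log2 fold change of −1.88 that did not pass. For 8 keratinocyte markers (2 at 0) the sums went from 0.40 to 1.76 CPM to 6.77 to 22.8 CPM. Of these 8, 5 had at most 3 counts in every tumor, and 1 of the 2 tested was called higher. Fibroblast markers (8, with 1 at 0) went from a sum of 397 to 583 CPM to 290 to 319 CPM. Of the 6 tested, 3 were called lower and 1 higher. Melanocyte markers (8, with 3 at 0) went from 233 to 310 CPM to 198 to 222 CPM, most of it from *Gpnmb*. Of the 3 tested, 0 were called lower and 0 higher. Over 8 dendritic cell markers (2 at 0) the sums were 6.05 to 8.86 CPM and 8.29 to 14.3 CPM, and 3 of these genes were tested. *Flt3* was higher, from at most 0.599 CPM to between 6.39 and 10.8 CPM. *Zbtb46* and *Batf3* went the other way, with log2 fold changes of −1.12 and −2.89, and did not pass the test. Over 6 neutrophil markers (3 at 0) the sum was at most 0.673 CPM in any library. The part of these cell types in the results was not tested. The samples are called tumors here as their labels do, and the files do not settle whether the libraries hold RNA of whole tumors with host cells. In bulk RNA, fewer cells of a type and less RNA per cell cannot be told apart.

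Of the 10 members, 4 were lower in RGS tumors (*H2-K1*, *Tap1*, *Psmb8* and *Psmb10*), 1 was higher (*Tap2*) and 5 did not pass the test (*H2-D1*, *B2m*, *Tapbp*, *Psmb9* and *Nlrc5*). Over all tested genes, 16.5% were called lower and 16.3% higher, at an adjusted p under 0.05 in edgeR's quasi-likelihood test. The numbers of genes called in each list here are to be read beside these shares. With scaling by library size only, 3152 genes were lower and 1870 higher, against 2533 and 2503 with TMM factors. The values of the groups did not overlap, in CPM, for 5 members that were lower with RGS and 1 that was higher, where 24% and 21.7% of all tested genes did the same. The median log2 fold change (RGS over vehicle) was −0.75 over the members and −0.048 over all tested genes, whose 10th and 90th percentiles were −1.64 and 1.33. The members include *Psmb9*, at −2.06, which passed the filter on low counts through the vehicle tumors alone. It could be called lower but hardly higher. Without RGS tumor 11 the median of the members was −1.08.

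**Figure D1:**
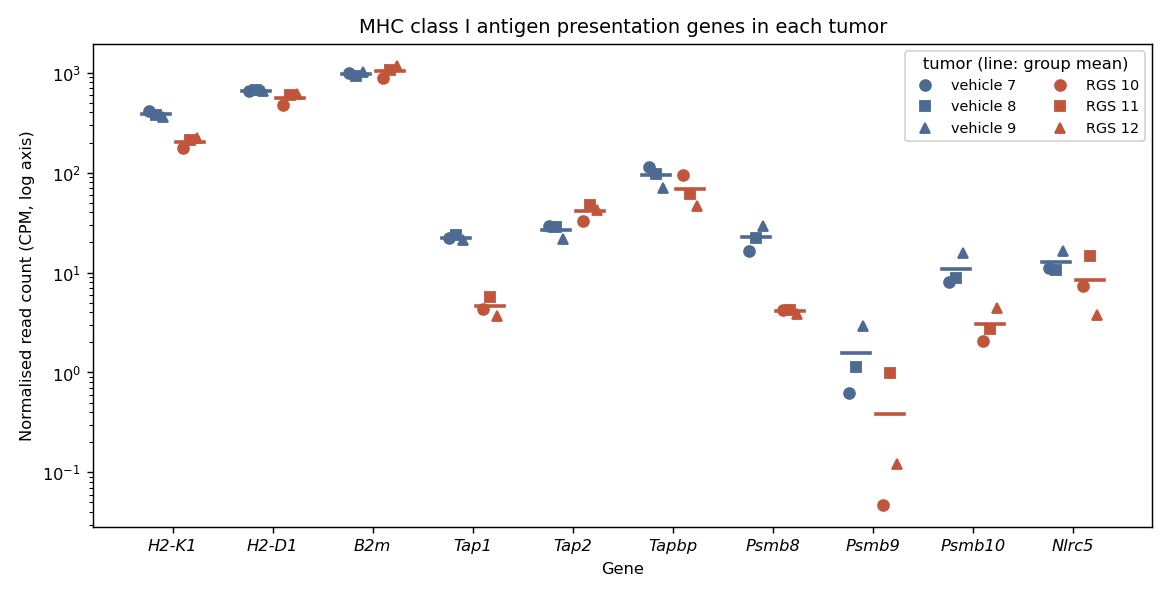
Normalised read count (CPM, log axis) of each of the 10 class I genes in the 3 vehicle tumors (blue) and the 3 RGS tumors (red), with a symbol for each tumor and a line at the group mean. The RGS tumors lie below all vehicle tumors for H2-K1, H2-D1, Tap1, Psmb8 and Psmb10, and above them for Tap2.

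The heavy chain *H2-K1* fell in the RGS tumors, while the other classical heavy chain, *H2-D1*, and the light chain *B2m* did not pass the test. *H2-K1* (17: 33996017 to 34000333, minus strand) stood at 416, 378 and 365 CPM in vehicle tumors 7, 8 and 9 and at 177, 214 and 223 CPM in RGS tumors 10, 11 and 12. The lowest vehicle value was well above the highest RGS value. Its log2 fold change was −0.92 ± 0.15 (SE, n = 3 per group, 95% confidence interval −1.24 to −0.60, adjusted p = 0.000145), or 1.89-fold lower.

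*H2-D1* (17: 35262730 to 35267499, plus strand) stood at 651, 677 and 659 CPM with vehicle and at 476, 598 and 607 CPM with RGS. The groups did not overlap, but the fitted difference was small beside its error, at −0.24 ± 0.15 on the log2 scale (interval −0.56 to 0.074, adjusted p = 0.235). *B2m* (2: 122147686 to 122153083, plus strand) stood at 985, 920 and 1025 CPM with vehicle and at 882, 1077 and 1170 CPM with RGS. These groups overlapped, with a log2 fold change of 0.095 ± 0.15 (interval −0.22 to 0.41, adjusted p = 0.675), whose sign turned to −0.049 when only the library size was used for scaling and to −0.019 without RGS tumor 12.

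The heavy chains could also be compared within each tumor, as reads per base of exon, which needs no scaling between libraries. *H2-K1* stood at 63.2%, 55.3% and 54.7% of *H2-D1* in the vehicle tumors and at 36.8%, 35.3% and 36.3% in the RGS tumors. The mean log2 ratio differed by −0.67 between the groups, which did not overlap. Against *B2m*, *H2-K1* went from between 11.7% and 13.9% to between 6.29% and 6.62%, and *H2-D1* from between 21.5% and 24.5% to between 17.3% and 18.5%. With 3 tumors a group the exact two-sided permutation test cannot go below 0.1, and it gave p = 0.1 for each of these 3 ratios, which were chosen after the values were seen. The heavy chains are near copies in places: of all stretches of 100 bases in their transcripts, 0.957% of those of *H2-K1* and 3.59% of those of *H2-D1* were found in another gene, so a small part of their reads cannot be placed with certainty.

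The other class I heavy chains, including the nonclassical molecules of the Q, T and M regions, were mostly lower. Of 21 such genes in the table, 10 were tested, of which 7 were lower, 0 were higher and 3 did not pass. The median log2 fold change of the 10 was −1.31, also with genes at the floor set to their bound. None was higher at an unadjusted p under 0.05 in edgeR, or called higher by DESeq2 or limma voom. However, *H2-Q6*, *H2-Q7* and *H2-T10* passed the filter on low counts through the vehicle tumors alone, so they could be called lower but hardly higher. The number of lower calls and the median rest in part on these genes. The table marks *H2-K2*, which did not pass, and *H2-T10* as pseudogenes. *H2-Q4* was at 43.1, 41.6 and 40.4 CPM with vehicle and at 5.44, 7.16 and 10.4 CPM with RGS, so that the groups were far apart (log2 fold change −2.45 ± 0.25, adjusted p = 7.53e-07). *H2-M3*, which presents formylated peptides, fell from a mean of 22.1 ± 4.88 to 8.34 ± 3.52 CPM (SD, n = 3). *H2-T10* had at most 3 counts in every RGS tumor and was at least 13.3-fold lower than with vehicle, against a floor of 3 counts per library.

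Named after their values were seen, the remaining called genes of this list were *H2-T23*, *H2-T22*, *Mr1* and *H2-Q6*. *H2-T23* encodes Qa-1, a ligand of the NKG2A receptor, and fell from 158 ± 22.6 to 67.3 ± 14.2 CPM (SD, n = 3). *Mr1*, which presents vitamin metabolites to MAIT cells, fell from 46.3 ± 3.51 to 23.4 ± 1.40 CPM. *H2-T22* fell from 68.4 ± 5.99 to 36.4 ± 10.2 CPM, and *H2-Q6*, with 0 counts in all RGS tumors, was at least 8.65-fold lower. Shared stretches of 100 bases made up 8.86% of *H2-T22*, most often with *Gm11127* and *H2-T10*, and 10.8% of *H2-Q6*, most often with *H2-Q1* and *H2-Q7*. The split of reads between each gene and those it shares with is therefore uncertain, also for *H2-T10*.

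**Figure D2:**
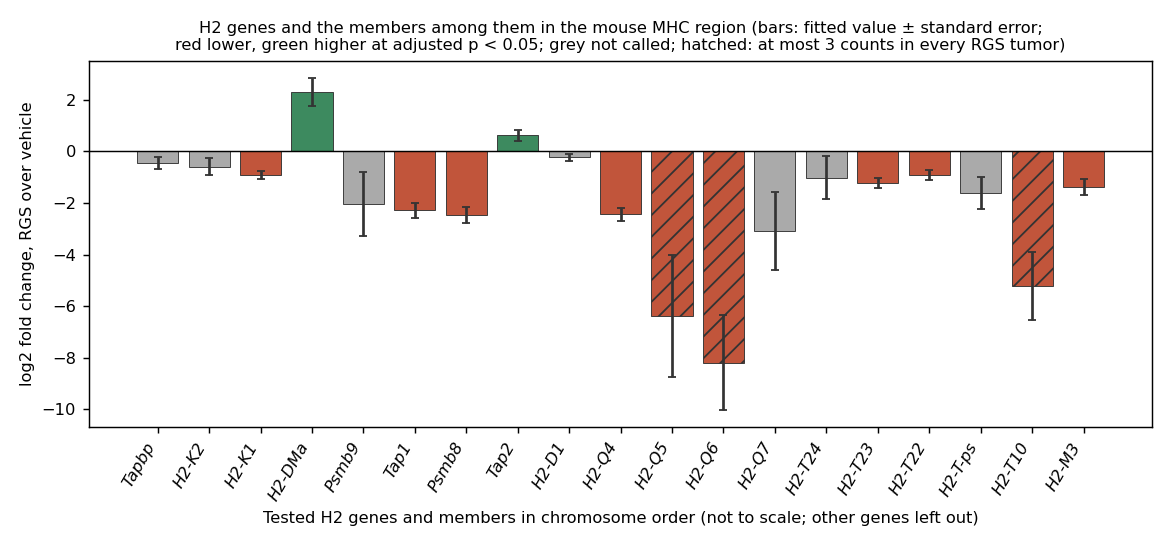
Log2 fold change (RGS over vehicle, bar, ± standard error) of the 19 tested genes among 42 H2 genes of the count table and the 5 members *Tapbp*, *Psmb9*, *Tap1*, *Psmb8* and *Tap2* that lie among them, in chromosome order, not to scale and with other genes of the region left out. Of the 19, 10 were lower (red) and 2 were higher (green, H2-DMa and Tap2), and for the hatched genes, with at most 3 counts in every RGS tumor, the height depends on the prior count and is no bound.

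The transporter subunits went in opposite directions. *Tap1* (17: 34187553 to 34197225, plus strand) stood at 22.1, 23.9 and 21.3 CPM with vehicle and at 4.36, 5.73 and 3.67 CPM with RGS. All RGS tumors were far below all vehicle tumors, with a log2 fold change of −2.30 ± 0.29 (interval −2.89 to −1.70, adjusted p = 6.38e-06), or 4.91-fold lower. *Tap2* (17: 34203527 to 34216321, plus strand), whose protein pairs with TAP1 in the transporter, stood at 29.5, 28.7 and 21.7 CPM with vehicle and at 33.0, 47.2 and 42.8 CPM with RGS.

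For *Tap2* the RGS tumors were all above the vehicle tumors, by a log2 fold change of 0.62 ± 0.21 (interval 0.18 to 1.06, adjusted p = 0.0288). This call was lost with scaling by library size only and without vehicle tumor 8, vehicle tumor 9, RGS tumor 11 or RGS tumor 12, where the adjusted p reached 0.131. Within each tumor, *Tap1* per base stood at 51.7%, 57.6% and 67.8% of *Tap2* with vehicle and at 9.10%, 8.38% and 5.93% with RGS, a ratio chosen after the values were seen. The groups did not overlap and the mean log2 ratio differed by −2.93 (exact permutation p = 0.1, the smallest possible). Exons of *Tap1* and *Psmb9* overlap by 212 bases on opposite strands (3.87% and 5.79% of their exon length), and the strand setting of the counting is not given in the sources used here.

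*Tapbp* (17: 33915899 to 33929288, plus strand) encodes tapasin, which bridges the transporter and the heavy chain. It stood at 114, 97.5 and 70.3 CPM with vehicle and at 95.7, 61.6 and 46.7 CPM with RGS. The groups overlapped, and the log2 fold change of −0.47 ± 0.23 (interval −0.95 to 0.014, adjusted p = 0.128) did not pass. It passed under limma voom with quality weights, with no filter, without vehicle tumor 9 and without RGS tumor 10, at adjusted p between 0.0183 and 0.0426. A neighbour on the same strand, *Zbtb22*, shares 149 of its exon bases.

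Among 8 other genes of peptide loading and trimming, 1 was lower and 3 were higher, with a median log2 fold change of 0.25 (0.43 without vehicle tumor 7). *Erap1*, the aminopeptidase that trims peptides in the endoplasmic reticulum, was at 11.8, 10.4 and 12.2 CPM with vehicle and at 2.18, 3.01 and 4.53 CPM with RGS (log2 fold change −1.83 ± 0.38, adjusted p = 0.00115). *Calr*, the chaperone calreticulin, rose from 458, 535 and 517 CPM to 1498, 1595 and 1638 CPM, 3.13-fold. *Pdia3*, the thiol oxidoreductase of the loading complex, rose from a mean of 738 ± 87.8 to 1355 ± 168 CPM (SD, n = 3), and *Bcap31*, a membrane protein that takes part in export from the endoplasmic reticulum, from 220.5 ± 47.7 to 359 ± 59.1 CPM. *Calr* and *Pdia3* also serve the folding of many other glycoproteins.

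**Figure D3:**
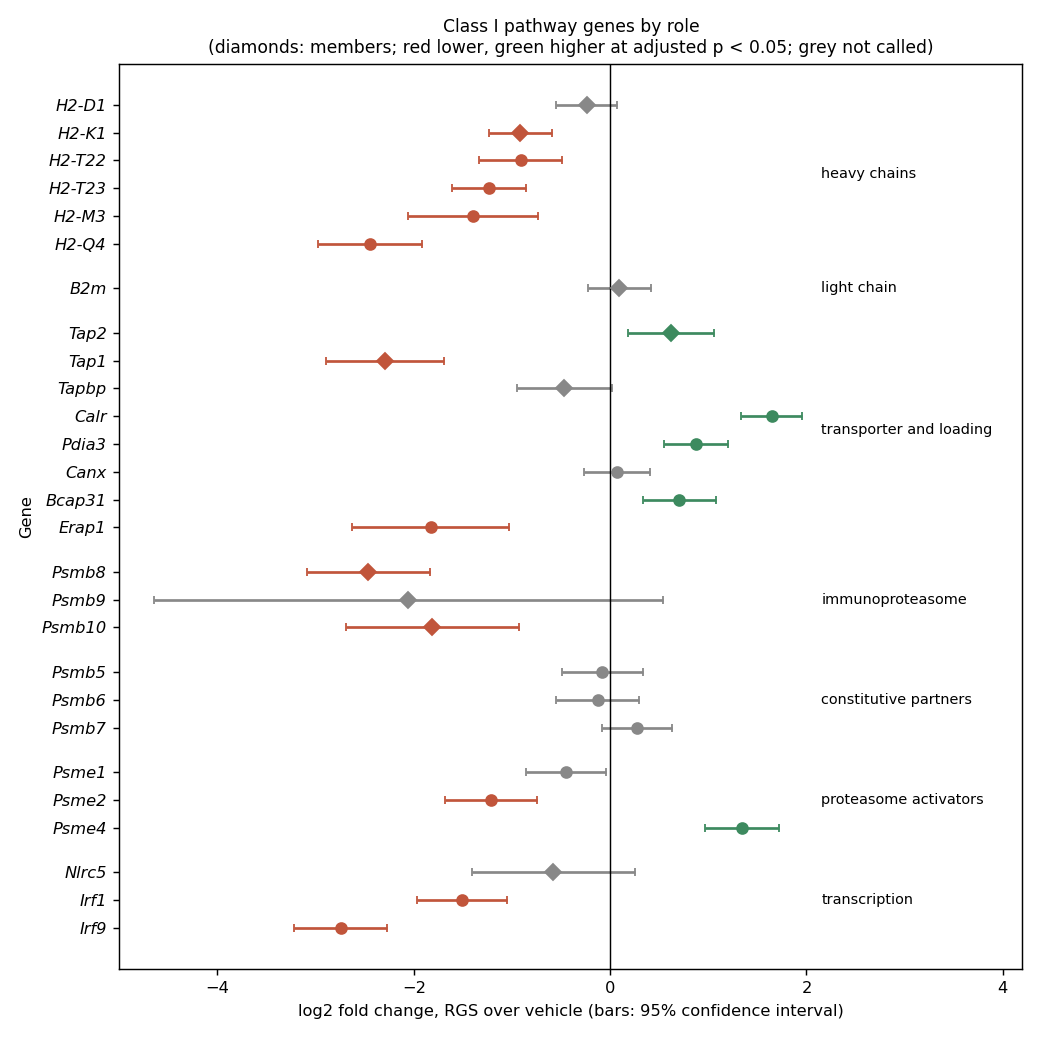
Log2 fold change (RGS over vehicle) with its 95% confidence interval for members (diamonds) and other class I pathway genes (circles), grouped by role. Within the transporter and loading group Tap1 (−2.30) and Erap1 (−1.83) lie left of 0 and Tap2 (0.62), Pdia3 (0.88) and Calr (1.65) right of it, while the constitutive subunits Psmb5, Psmb6 and Psmb7 have intervals that cover 0.

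Of the immunoproteasome subunits, *Psmb8* and *Psmb10* fell and *Psmb9* did not pass the test. *Psmb8* (17: 34197721 to 34201454, plus strand), the chymotrypsin-like subunit, stood at 16.5, 22.4 and 29.0 CPM with vehicle and at 4.21, 4.22 and 3.85 CPM with RGS. The RGS tumors lay within a narrow band below every vehicle tumor, with a log2 fold change of −2.46 ± 0.30 (interval −3.09 to −1.84, adjusted p = 4.88e-06), or 5.51-fold lower.

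*Psmb10* (8: 105935735 to 105938444, minus strand) lies outside the MHC region and stood at 8.02, 8.73 and 15.6 CPM with vehicle and at 2.08, 2.71 and 4.41 CPM with RGS. Again the groups did not overlap, with a log2 fold change of −1.81 ± 0.42 (interval −2.69 to −0.93, adjusted p = 0.0027). *Psmb9* (17: 34181988 to 34187764, minus strand) was counted 22, 32 and 68 times with vehicle and 1, 13 and 2 times with RGS, or 0.628, 1.14 and 2.92 CPM and 0.0473, 0.979 and 0.122 CPM. RGS tumor 11 lay within the vehicle range, the other two below the floor of 3 counts, and the log2 fold change of −2.06 ± 1.24 (interval −4.65 to 0.53, adjusted p = 0.217) did not pass. Without RGS tumor 11 the adjusted p was 0.0459, in the direction of lower, but the RGS counts left were 1 and 2, so no fold is given.

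Each immunoproteasome subunit takes the place of a constitutive one, so the pairs were compared within each tumor as reads per base of exon. *Psmb8* stood at 3.68%, 3.49% and 3.44% of *Psmb5* in the vehicle tumors and at 0.814%, 0.604% and 0.631% in the RGS tumors. *Psmb10* stood at 19.9%, 18.1% and 31.2% of *Psmb7* with vehicle and at 4.05%, 5.54% and 6.57% with RGS. Neither pair overlapped between the groups, and the mean log2 ratio differed by −2.38 for *Psmb8* to *Psmb5* and by −2.08 for *Psmb10* to *Psmb7* (exact permutation p = 0.1 each, the smallest possible). *Psmb9* to *Psmb6* ran from 0.276% to 0.704% with vehicle and from 0.0189% to 0.309% with RGS, with overlap and an exact permutation p of 0.3. Over the 7 within-tumor ratios none could pass a correction, since no p could be below 0.1.

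**Figure D4:**
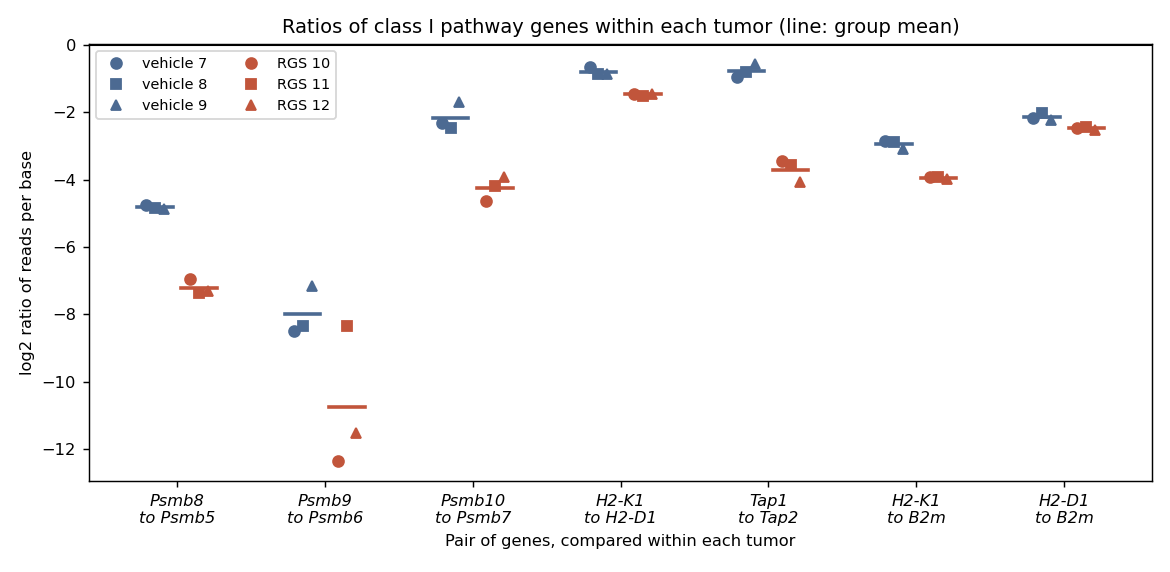
Log2 ratio of reads per exon base of 7 pairs of class I pathway genes in each tumor (blue vehicle, red RGS, a symbol for each tumor, line at the group mean). The RGS tumors lie below all vehicle tumors in 6 of the 7 pairs, and for Psmb9 to Psmb6 RGS tumor 11 lies within the vehicle range.

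The constitutive partners themselves did not pass the test. *Psmb5* was at 212 ± 64.7 CPM with vehicle and 200.1 ± 29.8 with RGS, *Psmb6* at 173 ± 50.1 and 158 ± 28.4, and *Psmb7* at 92.6 ± 10.3 and 112 ± 19.7 (SD, n = 3). Of all 14 genes of the constitutive 20S core, 2 were lower and 0 were higher (0 also at an unadjusted p under 0.05 in edgeR, by DESeq2 and by limma voom), with a median log2 fold change of −0.11. Without vehicle tumor 7, 5 were lower with a median of −0.32, and without any 1 of the other 5 tumors 1 was lower, with a median of 0.11 without vehicle tumor 9. Those that fell were the α subunits *Psma6* (log2 fold change −0.93 ± 0.22) and *Psma3* (−0.60 ± 0.22, adjusted p = 0.0433, with overlapping groups).

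Among 9 genes of proteasome activators and assembly, 2 were lower and 1 was higher, with a median of −0.23. Only 1 was lower without vehicle tumor 8, vehicle tumor 9, RGS tumor 10 or RGS tumor 12, and the median lay between −0.41 and −0.091 when each tumor was left out. *Psme2*, a subunit of the interferon-inducible PA28 activator, fell from 52.4, 79.2 and 113 CPM to 34.3, 34.2 and 37.0 CPM. Its partner *Psme1* had a log2 fold change of −0.45 ± 0.20 and an adjusted p of 0.0844. *Psme4*, the PA200 activator, rose from 144, 96.0 and 105 CPM to 347, 248 and 281 CPM, and the assembly chaperone *Psmg3* was lower (−1.10 ± 0.39, adjusted p = 0.0369) with overlapping groups.

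*Nlrc5* (8: 94434356 to 94527272, plus strand), the transactivator that is recruited to class I promoters, did not pass the test. It stood at 11.1, 10.6 and 16.3 CPM with vehicle and at 7.29, 14.5 and 3.73 CPM with RGS. RGS tumor 11 lay within the vehicle range while the other RGS tumors lay below it, and the log2 fold change was −0.58 ± 0.40 (interval −1.41 to 0.25, adjusted p = 0.283). Without RGS tumor 11 it was −1.20, with an adjusted p of 0.0218.

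Of 11 tested factors that bind class I promoters, 2 were lower and 1 was higher, with a median log2 fold change of 0.071. This median was −0.070 without vehicle tumor 9, −0.084 without RGS tumor 10 and −0.069 with library size only. *Irf1*, which binds interferon response elements, stood at 46.8, 49.7 and 52.2 CPM with vehicle and at 12.3, 19.5 and 20.5 CPM with RGS, a log2 fold change of −1.51 ± 0.22 (adjusted p = 3.49e-05). *Atf1*, which binds the cyclic AMP element, fell from 88.2 ± 4.93 to 45.5 ± 2.33 CPM, and *Rela*, a subunit of NF-kB, rose from 75.1 ± 16.5 to 122 ± 14.6 CPM (SD, n = 3). The regulatory factor X subunits *Rfx5*, *Rfxap* and *Rfxank*, named outside the rule, did not pass.

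Interferon gamma itself was not detected: *Ifng* had 0 counts in all 6 tumors, which allows up to 0.226 CPM in the shallowest library. Of 10 tested genes of its signaling, *Irf1* among them, 3 were lower and 1 was higher, with a median of 0.0082. That median lay between −0.065 and 0.046 when each tumor was left out. It turned below 0 without vehicle tumor 9, RGS tumor 11 or RGS tumor 12, and was −0.13 with library size only. Without vehicle tumor 7, 2 were higher. *Irf9*, a subunit of the transcription factor complex of type I interferon signaling, stood at 41.8, 44.7 and 53.1 CPM with vehicle and at 6.77, 7.68 and 6.36 CPM with RGS (log2 fold change −2.75 ± 0.22, adjusted p = 3.87e-08). The feedback inhibitor *Socs1* rose from 17.3 ± 2.17 to 35.1 ± 3.68 CPM.

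MHC class II served as a comparison. Of its 13 genes, 7 had 0 counts in all tumors, among them *H2-Aa* and the transactivator *Ciita*, and only 2 could be tested, both of which were higher. *H2-DMa*, which lies in the MHC region, rose from 2.20, 1.50 and 1.29 CPM to 2.79, 10.6 and 11.6 CPM, and *Ifi30*, a lysosomal thiol reductase encoded on chromosome 8, from 3.74, 3.88 and 3.96 CPM to 14.4, 14.8 and 15.0 CPM.

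**Figure D5:**
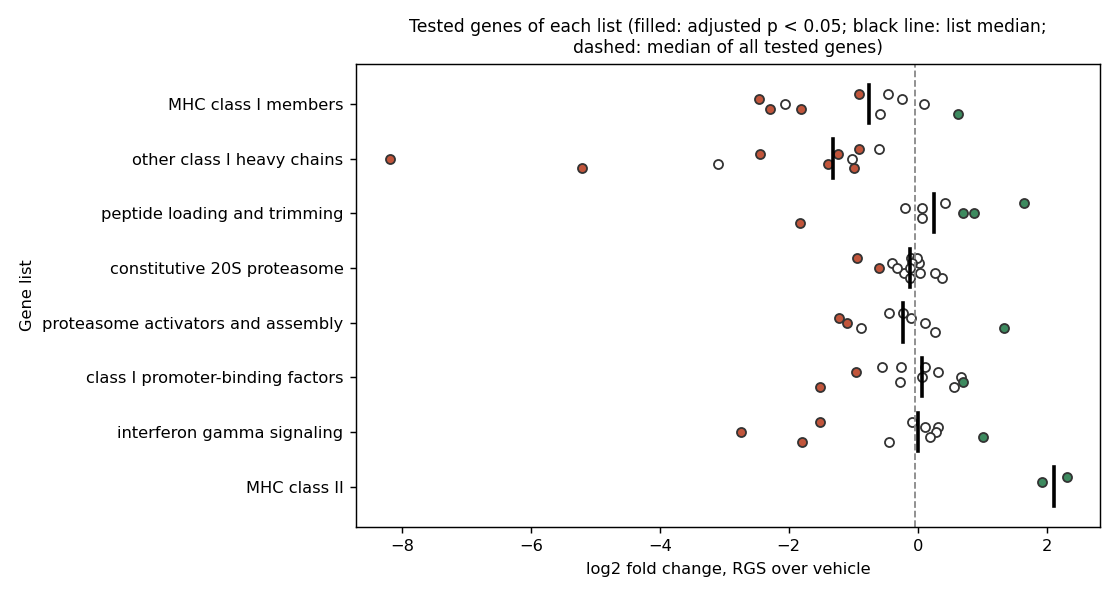
Log2 fold change (RGS over vehicle) of each tested gene in the member list and the 7 pathway lists, filled where adjusted p was under 0.05 (red lower, green higher), with a black line at the list median and a dashed line at the median of all tested genes. The medians of the members (−0.75) and of the other class I heavy chains (−1.31) lie left of the dashed line at −0.048, and those of the constitutive 20S proteasome (−0.11) and interferon gamma signaling (0.0082) lie near it. The members and the other class I heavy chains include genes that passed the filter on low counts through the vehicle tumors alone.

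Levels between genes were compared per length, as TPM, in which counts are divided by exon length and scaled to a common total. The length is that of all annotated exons of a gene together, which can exceed the transcript that was made. The order of genes, and the percentages within tumors, depend on it, while differences of a ratio between groups do not. With vehicle the order was *B2m* (3493 to 4192 TPM), *H2-D1* (752 to 924), *H2-K1* (411 to 584), *Tapbp* (62.8 to 127), *Psmb8* (22.1 to 31.1), *Tap2* (16.9 to 28.5), *Psmb10* (16.7 to 26.8), *Tap1* (11.4 to 14.7), *Nlrc5* (4.07 to 5.66) and *Psmb9* (0.628 to 2.35). The ranges of *Psmb8* and *Tap2*, and of *Tap2* and *Psmb10*, overlapped, and all other neighbours were apart. With RGS the 4 highest kept their order, from *B2m* (3185 to 3621 TPM) through *H2-D1* (573 to 671) and *H2-K1* (211 to 237) to *Tapbp* (37.7 to 90.2).

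Below these in the RGS tumors, *Tap2* (27.1 to 36.1 TPM) stood apart from *Psmb10* (3.79 to 6.88), and *Psmb10*, *Psmb8* (3.75 to 4.78), *Nlrc5* (1.17 to 4.95) and *Tap1* (1.79 to 3.02) each overlapped with the next. *Psmb9* was the lowest at 0.0402 to 0.774 TPM. By this measure the light chain was present at a far higher level than either classical heavy chain in both groups, and *Tap1* was below *Tap2* in every tumor. The gap with vehicle rests in part on the lengths used: in vehicle tumor 9 *Tap1* and *Tap2* stood at 21.3 and 21.7 CPM.

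The genes whose pattern over the 6 tumors was most like that of *H2-K1* were *Inhbb*, *Rps6ka5* and *Zfp467*, with root mean square differences in centred log2 CPM of 0.0531, 0.0678 and 0.0695 among 12239 genes. For *B2m* they were *Ccdc25* (0.0416), *Mrps2* (0.0458) and *Hmces* (0.0562). For *Nlrc5* the nearest were *Star* (0.148), *Mrm3* (0.179) and *Gm10033* (0.208), at larger distances than for the other two. No member of the pathway was among them, and the likeness is a description over 6 tumors that share their libraries.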

How the data were processed

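RNA from 6 YUMM3.3 tumors (3 vehicle, 3 RGS) was sequenced by the authors, who deposited raw read counts per gene for each tumor, without normalization, with gene length and position. The submitters' processing notes name cutadapt 1.18, FastQC 0.11.7, STAR 2.7.1a, featureCounts 1.6.4 and mm10; the strand setting and the treatment of multi-mapping reads are not given in the sources used here. Of the table's gene identifiers, 38927 were in GENCODE M21 with the same start and end, and 40013 when the version was ignored. Groups and replicate numbers were taken from the sample titles. The labels do not say that the tumors of a group came from separate mice, so p-values measure only the spread between these samples, which may be technical.

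Genes whose median count reached 5 in 1 group or both were kept (15355), scaled with TMM factors (0.920 to 1.08) and compared with edgeR 4.0.16 in R 4.3.3 (quasi-likelihood F test, Benjamini-Hochberg adjustment over all tested genes). Standard errors were derived from the F statistics. Within-tumor ratios were tested with an exact permutation test. Alternatives were DESeq2 1.42.0, limma 3.58.1 (voom with quality weights), RLE factors, library size only, other filters, thinned counts, mitochondrial or ribosomal protein genes left out, each tumor left out in turn, and thresholds of 0.01 and of an absolute log2 fold change of 1. The procedure was tested on simulated data. The members and lists were chosen with earlier results of these data known. Named genes were all members, up to 3 genes in each direction from each pathway list (called, with a mean of at least 1 CPM, by largest change), *Psmb5*, *Psmb6*, *Psmb7*, *Irf1*, *Ifng*, *Ciita* and *Ptprc*, and the 3 nearest patterns of *H2-K1*, *B2m* and *Nlrc5* (log2 CPM with a prior count of 2). The naming of other marker genes, *H2-K2*, *H2-Q7* and *Psme1* came after their values were known. Some genes of the lists are not reported here by name. The 10 lists of cell type markers were summed in CPM.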

Additional observations from a re-analysis of the deposited data

How the results depend on the processing

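Of 150 member values recomputed under 15 alternatives, 137 kept their direction and their side of the threshold, 5 lost a call, 6 gained one and 2 reversed. *H2-K1*, *Tap1*, *Psmb8* and *Psmb10* were called lower in all 15, with *H2-K1* between −1.06 and −0.82 and *Tap1* between −2.49 and −2.18. These alternatives leave out the changes of threshold. The number of members called lower stayed 4 at an adjusted p under 0.01. It was 3 at a log2 change of 1 or more in size, which *H2-K1*, at −0.92, did not reach. The 5 lost calls were those of *Tap2*, so the number of members called higher, 1, was 0 with library size only, at an adjusted p under 0.01 and at a log2 change of 1 or more in size, and lay between 0 and 1 when each tumor was left out. The number of pathway list genes called higher, 8, was 5 at a log2 change of 1 or more in size. The median over the members lay between −1.08 (without RGS tumor 11) and −0.67 when each tumor was left out. Values near 0 reversed: *B2m* to −0.049 with library size only and −0.019 without RGS tumor 12 (0.20 at most when a tumor was left out), *Psmb5* to 0.16 without vehicle tumor 9 and 0.015 without RGS tumor 10 (lowest −0.29), and *Psmb6* to 0.053 without vehicle tumor 9 (lowest −0.35). The cause was not tested. Library size only moved the median of all genes by −0.14. Over all genes, 2533 were lower and 2503 higher, against 1562 and 1607 at an adjusted p under 0.01 and 1450 and 1168 at a log2 change of 1 or more in size, and 3152 and 1870 with library size only. No paired analysis was possible because the groups share no replicate numbers. *Psmb9* had 1 and 2 counts in RGS tumors 10 and 12, under the floor of 3.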
